A study of Mus musculus with 8 samples.

Results

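Igf1, its receptor gene Igf1r, the acid-labile subunit gene Igfals and the binding protein genes Igfbp1 to Igfbp7 were followed across injured mouse liver. They were taken by gene symbol from the deposited read counts, and all 10 were found among the 22155 genes of the table and passed the low-count filter that left 13999 genes for testing. The 8 libraries came from adult C57BL/6 mice aged 8 to 10 weeks. Every mouse was fed ethanol in Lieber-DeCarli liquid diet, 1% for 2 days and then 2% for 10 days, and received a single intraperitoneal dose of carbon tetrachloride (CCl4), a liver toxin, of 1 µl per g body weight, 2 days ahead of liver collection. No group without ethanol and CCl4 was among these samples.

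The libraries formed 4 groups of 2. Yap controls were Yap1 floxed homozygotes infected with an AAV8 virus carrying GFP, and Yap1 knockouts were hepatocyte-specific knockouts made with an AAV8 virus carrying iCre, so that other liver cells should keep the gene. Ctgf controls were floxed homozygotes for Ctgf, a secreted matrix-associated protein that YAP is known to induce, and Ctgf knockouts were conditional knockouts. The sources used here do not give the promoter of the iCre virus or the Cre driver of the Ctgf knockout, and no virus is named for the Ctgf line. Nothing in the labels ties each replicate to its own animal. The p-values therefore weigh a group difference only against the spread between samples of the same group, which may be technical.

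Insulin-like growth factor 1 is a hormone made mainly by the liver, where growth hormone induces its gene through the transcription factor STAT5. In blood most of it travels in a complex with IGFBP3 or IGFBP5 and the acid-labile subunit, also a liver product, which keeps it in the circulation. IGFBP1 is made by hepatocytes, is repressed by insulin, binds IGF1 outside that complex and is known as an early response gene of liver injury and regeneration. Mature hepatocytes carry little of the IGF1 receptor, a tyrosine kinase.

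Total counts ran from 26904021 to 33488609 per library, and levels are given as CPM, counts scaled to a common library total with TMM factors. Yap1 itself measured 31.0 and 32.5 CPM in its knockouts, beside 107 and 76.1 CPM in Yap controls 1 and 2 (log2 fold change -1.53, SE 0.22, edgeR adjusted p = 0.0557). Ctgf stood at 8.02 CPM in Ctgf knockout replicate 1 but at 49.2 CPM in the library labelled Ctgf knockout replicate 2, against 28.8 and 32.1 CPM in the controls, which goes against that label. In the Yap line, and against what is known of YAP as its inducer, Ctgf measured 406 and 324 CPM with Yap1 deleted, beside 96.8 and 50.1 CPM in the controls, and this did not pass (log2 fold change 2.31, SE 0.72, edgeR adjusted p = 0.250). Yap control replicate 2 held pancreatic transcripts, with the 11 exocrine pancreas markers summing to 11238 CPM against 3.13 to 7.65 CPM in the other 7 libraries. Summed hepatocyte markers (9 genes, Alb and Apoa1 among them) ran from 69283 to 128933 CPM, so the liver label held in each library. In bulk tissue, fewer cells of a type and less RNA per cell cannot be told apart.

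Promoter sequences were read from RefSeq on GRCm38.p6 for all 10 members, in 13 windows of 300 bases (250 before to 50 after a transcript start), and 3 of them are shown for the genes on which the results turn most. Igfbp1 was the most abundant member, and its window holds the letters CAAAACA, the core of the element through which insulin and FOXO factors are known to act on this promoter. Igfals had the smallest p of the members in the Yap1 comparison, and a pair of its 3 windows hold TTCNNNGAA, the letters that STAT5 recognises. In the sequences below, capitals mark these matches, and all 3 windows lie on the plus strand.
Igfbp1, chr11:7197537-7197836: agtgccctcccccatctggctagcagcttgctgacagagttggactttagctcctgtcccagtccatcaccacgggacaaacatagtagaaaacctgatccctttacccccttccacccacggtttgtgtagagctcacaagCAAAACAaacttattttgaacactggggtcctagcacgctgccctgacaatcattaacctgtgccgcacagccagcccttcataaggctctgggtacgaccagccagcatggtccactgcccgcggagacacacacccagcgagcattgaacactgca
Igfals, chr17:24877594-24877893: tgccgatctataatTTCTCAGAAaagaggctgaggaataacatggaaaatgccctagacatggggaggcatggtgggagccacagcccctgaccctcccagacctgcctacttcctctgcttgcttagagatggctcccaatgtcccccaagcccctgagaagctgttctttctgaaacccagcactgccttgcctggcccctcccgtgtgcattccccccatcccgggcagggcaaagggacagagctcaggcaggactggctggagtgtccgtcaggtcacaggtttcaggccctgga
Igfals, chr17:24877981-24878280: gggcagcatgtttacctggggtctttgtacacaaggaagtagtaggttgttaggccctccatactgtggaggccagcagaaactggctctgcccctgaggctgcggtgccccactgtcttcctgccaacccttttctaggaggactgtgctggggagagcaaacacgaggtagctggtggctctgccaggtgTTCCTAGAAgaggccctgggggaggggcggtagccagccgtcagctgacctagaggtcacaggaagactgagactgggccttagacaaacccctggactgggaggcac

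Both strands were searched. CAAAACA began at base -108 from the Igfbp1 start and was in 1 of the 13 windows, against 6.28% of 32851 RefSeq promoter windows of the same length. TTCNNNGAA began at bases -236 and -58 in the Igfals windows and was in 2 of 13, against 8.30% of all windows. GGAATG, the letters bound by the TEAD partners of YAP, was in 2 of 13 windows (Igfals and Igfbp5) against 14.7%. The hypoxia element letters ACGTG and GCGTG were in 2 and 7 of 13, against 19.6% and 32.4%. The marked matches overlapped no match of another motif. A match is a run of letters and was not tested as a binding site.

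On a per-length scale (CPM per kb of GENCODE exon sequence), binding protein transcripts together outweighed the ligand's. Igfbp1 to Igfbp7 summed to 683 to 2484 CPM per kb, against 34.0 to 94.0 for Igf1. Taken singly, Igfbp3, Igfbp5 and Igfbp6 lay below Igf1 in every library. Igfbp1 ranked first, with a median over the 8 libraries of 887 CPM per kb (range 409 to 1922), followed by Igfbp4 at 164 (144 to 342). Igfbp7, Igfbp2 and Igf1 followed at medians of 73.7, 62.9 and 52.7 CPM per kb, with ranges that overlapped (53.2 to 101, 38.2 to 186 and 34.0 to 94.0). Igfbp3 and Igfals overlapped in turn at medians of 10.0 and 9.42 CPM per kb. Igfbp5, Igfbp6 and Igf1r came last and also overlapped, at 1.61, 1.15 and 0.511 CPM per kb. The steps from Igfbp1 to Igfbp4, from Igfbp4 to Igfbp7, from Igf1 to Igfbp3 and from Igfals to Igfbp5 were free of overlap between libraries. Igfbp2, further down the order, still reached above the lowest Igfbp4 level through Yap control replicate 2 alone, at 186 against 144 CPM per kb. The order depends on the merged exon lengths used. In plain CPM, Igf1 (336 to 931) lay above Igfbp7 (64.3 to 122), with 9904 exon bases against 1209.

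By the same scale Igfbp1, Igfbp2 and Igfbp4, the binding proteins that hepatocytes are best known to make, took 88.3% to 96.3% of the summed Igfbp1 to Igfbp7 level in each library. Igfbp1 alone took from 59.6% in Ctgf knockout replicate 1 to 85.3% in Yap1 knockout replicate 1.

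**Figure D1:**
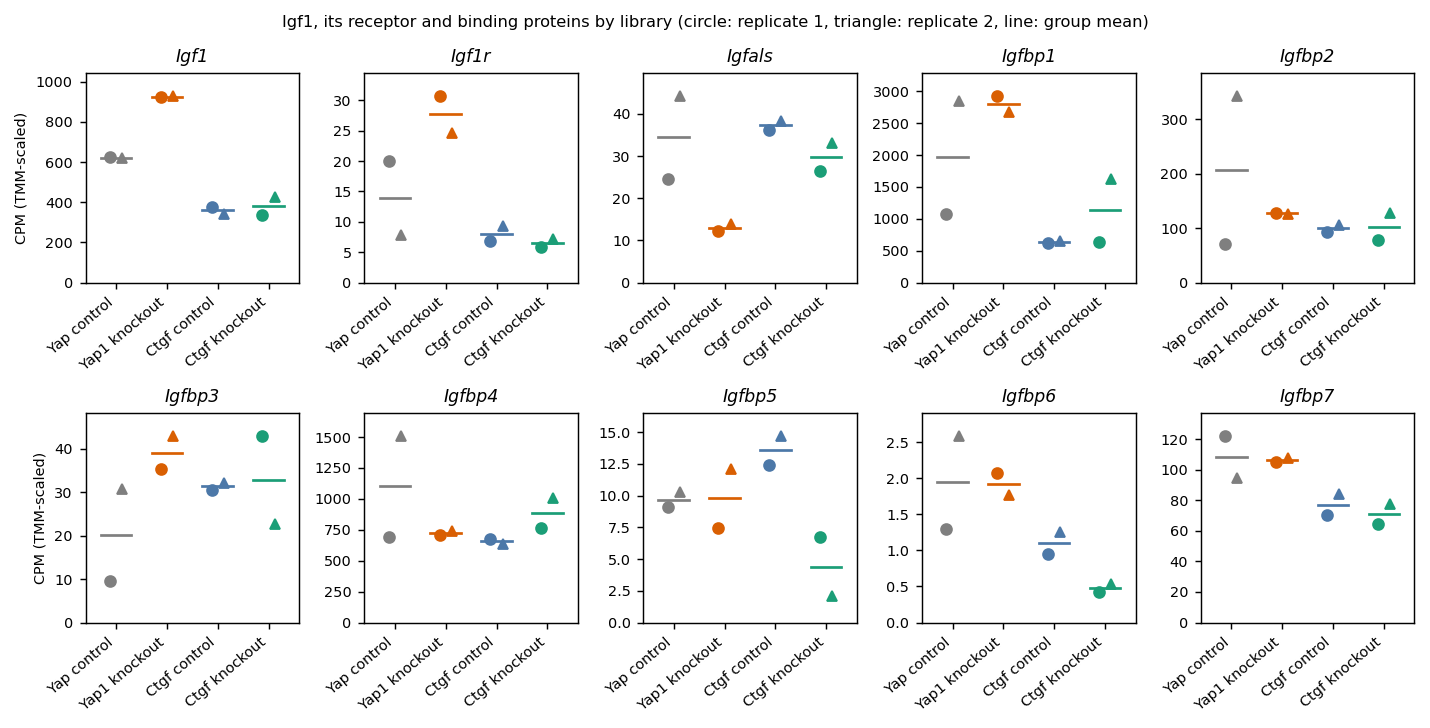
Level of each member in CPM (TMM-scaled, linear axis from 0) in the 8 libraries, with a circle for replicate 1, a triangle for replicate 2 and a line at the group mean. Igf1 sat at 922 and 931 CPM in both Yap1 knockouts and at 624 and 618 CPM in their controls, while Igfbp1, Igfbp2 and Igfbp4 were spread between the Yap controls.

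The first comparison asked what deletion of Yap1 in hepatocytes, which removes a transcriptional coactivator restrained by the Hippo pathway, does to these transcripts. The ligand and its receptor stood higher and the acid-labile subunit lower in both knockouts than in both controls, but no member passed the test. In edgeR's quasi-likelihood test, with p-values adjusted by Benjamini-Hochberg over all genes, 0 of 10 members passed at 0.05, against 0.0286% of all genes (4 of 13999, with 0.0214% higher and 0.00714% lower). At an unadjusted p under 0.05 there were 3 members (Igf1, Igf1r and Igfals) against 13.8% of all genes, and DESeq2 called 1, Igfals, against 3.82% of the genes it tested. Libraries of the knockout and control groups did not overlap for 3 members on the higher side (Igf1, Igf1r and Igfbp3), where 23.6% of all genes did the same, and for 1 on the lower side (Igfals), against 20.8% of all genes. The median log2 fold change of the 10 members was 0.0034, beside -0.0046 over all genes tested.

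Igf1 (chromosome 10, 87858265 to 87937042, plus strand, GRCm38) stood at 922 and 931 CPM in Yap1 knockouts 1 and 2 and at 624 and 618 CPM in Yap controls 1 and 2. The replicates lay close together in each group, and the groups did not overlap. The fitted difference was 1.49-fold (log2 fold change 0.58, SE 0.22, n = 2 against 2, edgeR adjusted p = 0.324). Over the alternative settings the log2 value kept to 0.55 to 0.59, with adjusted p from 0.059 to 0.834, and so did not pass under any.

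Igf1r (chromosome 7, 67952827 to 68233668, plus strand), the tyrosine kinase receptor of IGF1, measured 30.8 and 24.6 CPM with Yap1 deleted, against 20.0 and 7.90 CPM in the GFP-virus Yap controls. Both knockouts were above both controls, and the controls differed 2.53-fold between themselves. On the log2 scale the fold change was 0.99 (SE 0.41, edgeR adjusted p = 0.355). Against Yap control replicate 2 alone, the library with pancreatic transcripts, it was 1.78 (adjusted p = 0.0133), a setting under which 25.8% of all genes and 4 members passed, and against replicate 1 alone it was 0.47. Adjusted p over all settings ran from 0.0133 to 0.834.

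Igfals (chromosome 17, 24865997 to 24882010, plus strand) encodes the subunit that holds the circulating complex together. It measured 12.1 and 13.8 CPM with Yap1 deleted, against 24.7 and 44.3 CPM in the GFP-virus Yap controls, with no overlap. In the 4 libraries of the Ctgf line it ranged from 26.5 to 38.4 CPM, so the Yap1 knockouts held the lowest levels of the series. The fitted level was 2.66-fold lower (log2 fold change -1.41, SE 0.30, edgeR adjusted p = 0.140). It passed with DESeq2 (log2 fold change -1.43, adjusted p = 0.00204), with Yap control replicate 1 left out (-1.80, adjusted p = 0.00715), and with the doubted pair left out, which is Yap control replicate 2 together with the knockout-labelled Ctgf replicate 2 (-0.93, adjusted p = 0.0236). In that last setting 6.58% of all genes and 4 members passed. Adjusted p over all settings ran from 0.00204 to 0.802.

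Igfbp3 (chromosome 11, 7206086 to 7213923, minus strand), the main carrier of IGF1 in blood, measured 35.4 and 42.9 CPM with Yap1 deleted, against 9.46 and 30.7 CPM in the GFP-virus Yap controls. The groups did not overlap, though Yap control replicate 2 lay nearer to the knockouts than to its own replicate. This gave a log2 fold change of 0.97 (SE 0.51, edgeR adjusted p = 0.426). It was 2.05 without Yap control replicate 2 and 0.32 without replicate 1. With the doubted pair left out, the value of 2.05 passed (adjusted p = 0.00657).

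Ratios within a library do not depend on its scaling, though their size depends on the exon lengths used. Igfals was 4.12% and 4.64% of the Igf1 level per kb in the Yap1 knockouts, against 12.4% and 22.4% in the Yap controls and 24.3% to 35.0% in the Ctgf line. In the Yap1 knockouts Igf1 was at its highest and Igfals at its lowest of the 8 libraries. Igfbp3 was 12.1% and 14.6% of Igf1 in the knockouts, between the Yap controls at 4.79% and 15.7%.

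**Figure D2:**
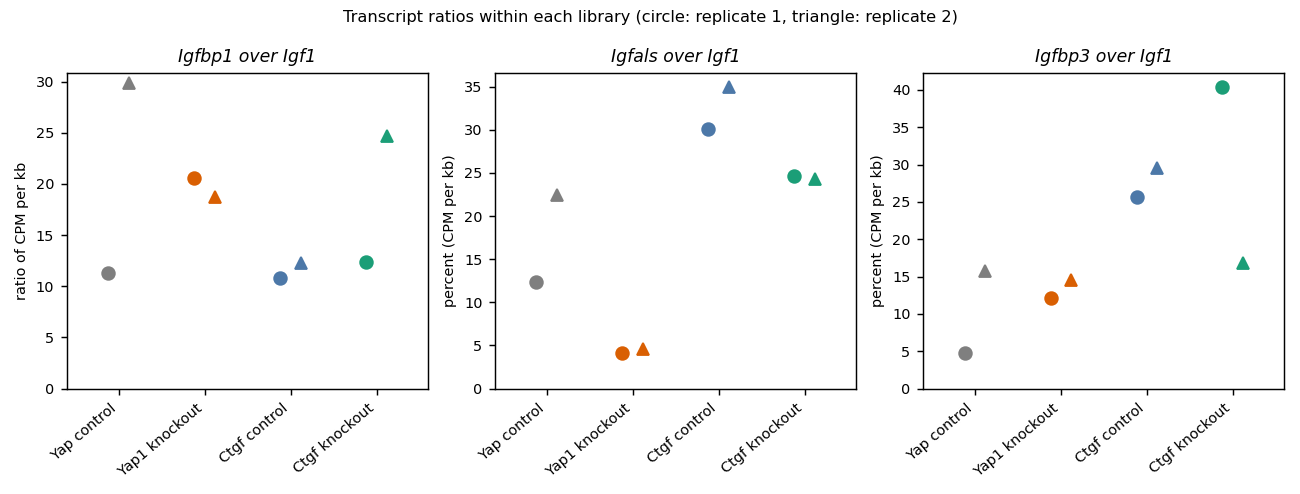
Ratios between members within each library, from CPM per kb of exon, by group, with circles for replicate 1 and triangles for replicate 2 and axes from 0. The percentage of Igfals over Igf1 was 4.12% and 4.64% in the Yap1 knockouts and at least 12.4% in the other 6 libraries, and Igfbp1 over Igf1 was spread within the Yap controls and within the libraries labelled Ctgf knockout.

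Igfbp1 (chromosome 11, 7197782 to 7202546, plus strand) measured 2930 and 2679 CPM with Yap1 deleted, against 1083 and 2843 CPM in the GFP-virus Yap controls. The groups overlapped, since Yap control replicate 2 lay between the knockouts. The log2 fold change was 0.51 (SE 0.53, edgeR adjusted p = 0.651), and it was 1.37 without Yap control replicate 2 and -0.048 without replicate 1. With the doubted pair left out it passed at 1.37 (adjusted p = 0.0127). Its neighbour Igfbp3 lies 3539 bases away on the opposite strand, with the 3′ ends of the genes facing, and Yap control replicate 1 was the lowest of the 4 Yap-line libraries for both genes.

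Igfbp1 was high in the same libraries as the sum of the hepatocyte markers. The 4 libraries with 1624 to 2930 CPM of Igfbp1 had summed hepatocyte markers of 92866.5 to 128933 CPM, and the 4 with 624 to 1083 CPM had 69283 to 87564 CPM. Single markers did not all keep this order. Apoa1 did, while Alb was lowest of all 8 libraries in Yap1 knockout replicate 1, at 29931 CPM. Apob was lowest in Yap control replicate 2, at 4062 CPM. All 9 markers were detected, and their part in the result was not tested.

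Igfbp2 and Igfbp4, a pair of binding proteins of the hepatocyte, were highest of all 8 libraries in Yap control replicate 2. Igfbp2 (chromosome 1, 72824503 to 72852474, plus strand) measured 129 and 127 CPM with Yap1 deleted, against 70.6 and 343 CPM in the GFP-virus Yap controls. Its controls thus differed 4.86-fold and enclosed both knockouts. The log2 fold change was -0.70 (SE 0.61, edgeR adjusted p = 0.595), and it turned with the control used, at -1.46 without Yap control replicate 1 (adjusted p = 0.0171) and 0.86 without replicate 2. With the doubted pair left out it was 0.85 (adjusted p = 0.0219), so opposite signs passed under different settings.

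Igfbp4 (chromosome 11, 99041244 to 99054392, plus strand), which holds IGF1 away from its receptor until the protease PAPP-A cuts it, measured 706 and 739 CPM with Yap1 deleted, against 690 and 1511 CPM in the GFP-virus Yap controls. Yap control replicate 1 lay just under both knockouts and replicate 2 far above them. The log2 fold change was -0.61 (SE 0.36, edgeR adjusted p = 0.464), -1.09 without replicate 1 (adjusted p = 0.0185) and 0.067 without replicate 2. In that replicate, summed cholangiocyte markers were also high, at 1499 CPM against 291 to 678 CPM elsewhere (8 of 8 detected), beside the pancreatic transcripts given above. Whether these bear on Igfbp2 and Igfbp4 was not tested.

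Igfbp5, Igfbp6 and Igfbp7, made mainly by stromal, mesothelial and endothelial cells, stood at like mean levels in Yap1 knockouts and controls. Igfbp5 (chromosome 1, 72857932 to 72874884, minus strand), which binds matrix, was at 7.47 and 12.1 CPM in the knockouts and 9.07 and 10.3 CPM in the controls, which lay between them. Igfbp6 (chromosome 15, 102144362 to 102149511, plus strand), which prefers IGF2, was at 2.07 and 1.76 CPM against 1.30 and 2.59 CPM. Igfbp7 (chromosome 5, 77349240 to 77408041, minus strand), a vascular matrix protein that binds IGFs weakly, was at 105 and 107 CPM against 122 and 94.3 CPM. The log2 fold changes came to 0.017 (SE 0.49), -0.010 (SE 0.45) and -0.029 (SE 0.21), and their edgeR adjusted p to 0.990, 0.993 and 0.954. For Igfbp7, 85 exon bases overlap Polr2b on the opposite strand, and reads there may not have been told apart. Of these 3 genes Igfbp7 had the smallest SE.

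Neutrophil and erythroid transcripts stood higher in the Yap1 knockouts. The 10 neutrophil markers summed to 1035 and 521 CPM against 142 and 263 CPM in the Yap controls, with 9 of 10 higher without overlap. The 6 erythroid markers in the table summed to 467 and 403 against 123 and 229 CPM, with 6 of 6 higher without overlap. Of all genes, 23.6% were higher without overlap in this comparison. None of these markers was at 0 in all libraries, and their part in the levels of Igf1, Igf1r, Igfals and Igfbp3 was not tested.

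The second comparison set the libraries labelled Ctgf knockout against the Ctgf controls in the same injury. Ctgf itself had a fitted log2 fold change of -0.087 (SE 0.69) here, since it was reduced in replicate 1 alone. The comparison is therefore one of labels and does not show what loss of Ctgf does. The stromal binding protein genes Igfbp5 and Igfbp6 stood lower in both libraries labelled knockout than in both controls, while Igf1 and Igf1r overlapped. No member passed, 0 of 10 against 0% of all genes by edgeR's quasi-likelihood test, and DESeq2 called 0 members and 4 of all genes (0.0286%). At an unadjusted p under 0.05 there were 2 members (Igfbp5 and Igfbp6), against 1.98% of all genes. Groups did not overlap for 1 member on the higher side (Igfbp4, against 15.5% of all genes) and 3 on the lower (Igfals, Igfbp5 and Igfbp6, against 16.8%). The members' median log2 fold change was -0.041, beside 0.0064 over all genes tested.

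Igfbp5 stood at 6.74 and 2.07 CPM in the libraries labelled Ctgf knockout 1 and 2 and at 12.4 and 14.7 CPM in the Ctgf controls. Those 2 libraries were also the lowest of all 8 for this gene. The fitted level was 3.09-fold lower (log2 fold change -1.63, SE 0.51, n = 2 against 2, edgeR adjusted p = 1.0). With a single knockout-labelled library in the fit, the value was -1.01 for replicate 1 and -2.70 for replicate 2. Ctgf stood at 8.02 CPM in replicate 1 and 49.2 CPM in replicate 2. The larger drop of Igfbp5 was thus in the library where Ctgf was not reduced.

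Igfbp6 stood at 0.426 and 0.541 CPM in those labelled knockout and at 0.956 and 1.25 CPM in the Ctgf controls, from raw counts of 12 and 17 against 30 and 44. The groups did not overlap, and the knockout levels were at least 4 times the level that 3 counts give. The log2 fold change was -1.18 (SE 0.48, edgeR adjusted p = 1.0), and it kept to -1.37 to -0.97 with single libraries left out.

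Mesothelial markers were low in the same libraries. The 6 of them summed to 6.70 and 4.42 CPM in the libraries labelled Ctgf knockout and to 17.1 and 12.3 CPM in the Ctgf controls, with 6 of 6 lower and none overlapping, and none was at 0 in all libraries. Msln, the mesothelial surface protein mesothelin, stood at 1.45 and 0.954 against 5.10 and 3.95 CPM. Stellate cell and fibroblast markers (12 of 12 detected) summed to 515 and 457 against 539 and 540 CPM, with 5 of 12 lower and 1 higher without overlap. Kupffer cell and macrophage markers summed to 425 and 804 against 761 and 1113 CPM, with 7 of 10 lower without overlap. Neutrophil markers summed to 74.4 and 145 against 181 and 211 CPM, also with 7 of 10 lower without overlap. Of all genes, 16.8% were lower and 15.5% higher without overlap in this comparison. The part of these cells in the levels of Igfbp5 and Igfbp6 was not tested. In the Yap line mesothelial markers summed to 17.2 and 15.7 CPM in the knockouts and 10.6 and 8.44 CPM in the controls, where Igfbp5 and Igfbp6 overlapped.

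Of the hepatocyte genes, Igf1 read 336 and 427 CPM in the libraries labelled Ctgf knockout, beside Ctgf controls of 376 and 343 CPM (on the log2 scale 0.086, SE 0.22, edgeR adjusted p = 1.0). Igfals stood at 26.5 and 33.1 against 36.2 and 38.4 CPM (on the log2 scale -0.32, SE 0.29, adjusted p = 1.0), and so below both controls but above the Yap1 knockouts. Igfbp4 stood at 768 and 1005 against 675 and 638 CPM (on the log2 scale 0.43, SE 0.36, adjusted p = 1.0).

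Igfbp1 parted the libraries labelled Ctgf knockout from each other. Replicate 2, in which Ctgf was not reduced, held 1624 CPM, whereas replicate 1 held 641 CPM, beside 624 and 649 CPM in the controls. The log2 fold change was 0.83 (SE 0.53, edgeR adjusted p = 1.0) over both, 0.0092 without replicate 2 and 1.37 without replicate 1. Igfbp3 had the opposite order, at 43.03 CPM in replicate 1 and 22.7 CPM in replicate 2, with the controls between at 30.6 and 32.1 CPM (on the log2 scale 0.069, SE 0.51, adjusted p = 1.0). Igfbp2 stood at 77.3 and 128 against 93.6 and 106 CPM, Igf1r at 5.78 and 7.22 against 6.82 and 9.27 CPM, and Igfbp7 at 64.3 and 77.4 against 70.4 and 83.9 CPM, each with overlapping groups and an adjusted p of 1.0.

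**Figure D3:**
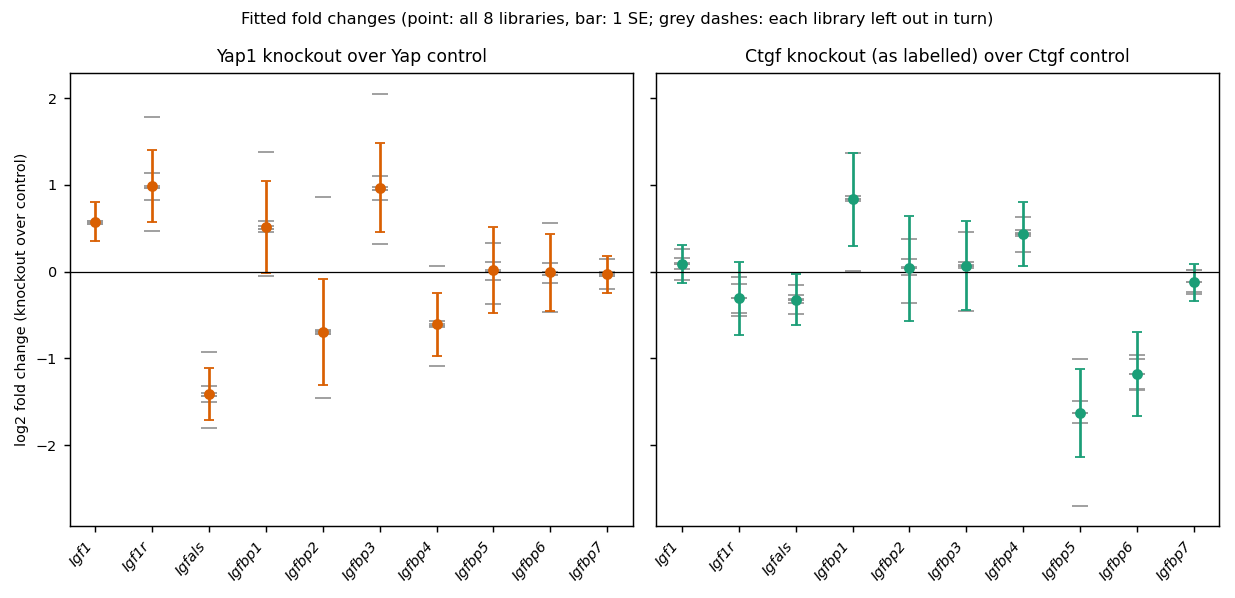
Fitted log2 fold changes of the 10 members in the Yap1 (left) and Ctgf (right) comparisons, as points with bars of 1 SE, with grey dashes for the value when each of the 8 libraries was left out in turn. Igf1 kept to 0.55 to 0.59 in the Yap1 comparison, Igfbp2 ran from -1.46 to 0.86, and Igfbp5 ran from -2.70 to -1.01 in the Ctgf comparison.

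The difference between the Yap1 comparison and the Ctgf comparison, with libraries as labelled, was tested directly. By edgeR's quasi-likelihood test 0 of 10 members passed, against 0% of all genes, and DESeq2 called 0 members and 142 of all genes (1.06%). At an unadjusted p under 0.05 there were 2 members, Igfals at -1.09 (SE 0.41, adjusted p = 0.531) and Igfbp5 at 1.65 (SE 0.71, adjusted p = 0.557), against 8.87% of all genes. Without Yap control replicate 1, 4 members and 14.5% of all genes passed, the members being Igf1r (2.08), Igfals (-1.49), Igfbp2 (-1.50) and Igfbp4 (-1.53), with adjusted p of 0.0266, 0.0249, 0.0463 and 0.0276. With the doubted pair left out, 2 members passed, Igfbp2 at 1.22 and Igfbp3 at 1.59 (adjusted p = 0.0423 and 0.0435), against 1% of all genes.

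The Yap controls were set against the Ctgf controls to show how the members vary without either knockout. The line, the GFP virus and any batch cannot be told apart here, and the comparison shares its samples with both knockout comparisons. By edgeR 0 of 10 members passed, against 2.38% of all genes (1.27% higher and 1.11% lower), with 2 members (Igf1 and Igfbp1) against 22.5% at an unadjusted p under 0.05, while DESeq2 called those 2 and 10.9% of all genes. Igf1 stood at 624 and 618 CPM against 376 and 343 CPM (on the log2 scale 0.79, SE 0.22, edgeR adjusted p = 0.0997), and Igfbp1 at 1083 and 2843 against 624 and 649 CPM (1.63, SE 0.54, adjusted p = 0.139). The groups did not overlap for 5 members on the higher side (Igf1, Igfbp1, Igfbp4, Igfbp6 and Igfbp7), against 26.1% of all genes, and for 1 on the lower (Igfbp5), against 27%. DESeq2 gave adjusted p of 0.00574 for Igf1 and 0.0148 for Igfbp1. Without Yap control replicate 1 Igf1, Igfbp1, Igfbp2 and Igfbp4 passed (0.80, 2.18, 1.81 and 1.23, adjusted p = 0.0355, 0.0259, 0.0136 and 0.0168), against 25.6% of all genes. Without replicate 2 Igf1r passed at 1.31 (adjusted p = 0.0421), against 7.07% of all genes. With the doubted pair left out 7 members passed, Igf1 (0.79), Igf1r (1.31), Igfbp1 (0.76) and Igfbp7 (0.66) on the higher side and Igfals (-0.60), Igfbp2 (-0.50) and Igfbp3 (-1.73) on the lower, where 28.4% of all genes passed. Stellate cell and fibroblast markers summed to 1415 and 1094 CPM in the Yap controls against 539 and 540 CPM, with 5 of 12 past the edgeR threshold on the higher side and 9 of 12 higher without overlap. Endothelial markers summed to 853 and 641 against 419 and 509 CPM, with 9 of 11 higher without overlap, and the part of these cells in the members' levels was not tested.

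The genes nearest to Igf1 over the 8 libraries were Tpi1 and Gpi1, which encode isomerases of glycolysis, and the sulfotransferase gene Chst2. Likeness was the root mean square difference in log2 CPM after centring each gene on its own mean, among 10137 genes of at least 5 CPM, and was 0.086 for Tpi1, 0.137 for Gpi1 and 0.160 for Chst2, where the median gene lay at 0.663. Tpi1 stood at 425 and 476 CPM in both Yap1 knockouts, 273 and 318 in the Yap controls and 163 to 202 CPM in the Ctgf line. Among the members with at least 5 CPM, Igfbp7 lay nearest to Igf1 (0.362, place 449 of 10137) and Igfals farthest (1.13, place 9681). With the doubted pair left out, Tpi1 was the only gene of the 3 to remain.

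**Figure D4:**
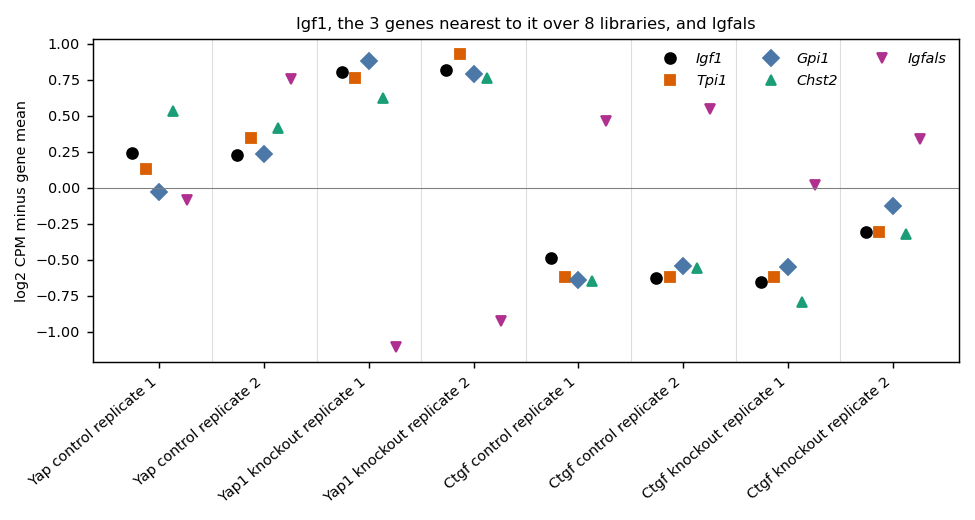
Log2 CPM of Igf1, of the 3 genes nearest to it and of Igfals in each of the 8 libraries, each gene centred on its own mean. Igf1, Tpi1, Gpi1 and Chst2 lie highest in the Yap1 knockouts and lowest in the Ctgf line, and Igfals lies lowest in the Yap1 knockouts.

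Other genes of the pathway were read from 4 lists with 61 genes, of which 59 were tested, and no gene of any list passed in any of the comparisons by edgeR. In the list of other IGF ligands, receptors, adaptors and binding protein modifiers (13 of 15 tested), the median log2 fold change in the Yap1 comparison was 0.36, against -0.0046 over all genes, and 5 genes stood higher and 1 lower without overlap (23.6% and 20.8% of all genes). Pappa2, a protease that cuts IGFBP3 and IGFBP5, stood at 1.18 and 0.727 CPM in both Yap1 knockouts and 0.0830 and 0.123 CPM in the controls, the level of 3 counts each. In the Ctgf line Pappa2 stood at 0.213 and 0.0636 CPM in those labelled knockout and 1.34 and 0.739 CPM in the controls. Its level in the library labelled Ctgf knockout replicate 2 lay under that of 3 counts there, 0.0954 CPM. Stc1, a stanniocalcin that inhibits PAPP-A, stood at 4.05 and 2.21 CPM in both Yap1 knockouts against 0.996 and 0.659 CPM. The edgeR adjusted p in the Yap1 comparison was 0.153 for Pappa2 and 0.235 for Stc1, and that of Pappa2 in the Ctgf comparison was 1.0. The median of this list in the Ctgf comparison was -0.0077, against 0.0064 over all genes, and the clearance receptor gene Igf2r stood at 156 and 142 against 196 and 217 CPM.

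In the list of the growth hormone receptor and STAT5 axis (13 of 13 tested) the median log2 fold changes were -0.14 in the Yap1 and -0.084 in the Ctgf comparison. Socs2, a feedback inhibitor that growth hormone induces through STAT5, stood at 12.0 and 13.3 CPM in both Yap1 knockouts and 17.0 and 39.3 CPM in the Yap controls (log2 fold change -1.15, SE 0.37, edgeR adjusted p = 0.263). It also stood lower in the libraries labelled Ctgf knockout, at 5.50 and 6.58 against 11.9 and 12.3 CPM (-1.002, SE 0.37, adjusted p = 1.0). Socs3, the feedback inhibitor of cytokine signalling, stood at 121 and 95.1 CPM in both Yap1 knockouts against 62.5 and 58.2 CPM (0.84, SE 0.30, adjusted p = 0.302).

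The list of PI3K, AKT and FOXO signalling (21 of 21 tested) had medians of 0.14 in the Yap1 and -0.080 in the Ctgf comparison, with 5 genes higher and 4 lower without overlap in the first (23.6% and 20.8% of all genes) and 2 and 7 in the second (15.5% and 16.8%). The regulatory subunit gene Pik3r1 stood at 100.5 and 132 CPM in both Yap1 knockouts against 84.1 and 55.4 CPM (0.74, SE 0.25, adjusted p = 0.288). In the list of liver genes under insulin and FOXO control (12 of 12 tested), the medians were 0.063 and 0.16. Ppargc1a, a coactivator of gluconeogenesis, stood at 49.0 and 54.7 against 26.6 and 25.3 CPM in the Yap1 comparison and at 19.4 and 23.9 against 34.1 and 44.98 CPM in the Ctgf comparison. Its edgeR adjusted p was 0.153 and 1.0. G6pc, the glucose-releasing phosphatase, stood at 225 and 430 CPM in the libraries labelled Ctgf knockout against 155 and 153 CPM, with the higher value, as for Igfbp1, in replicate 2 (log2 fold change 1.09, SE 0.38, adjusted p = 1.0). Unlike Ppargc1a, G6pc stood lower in the Yap1 knockouts, at 84.6 and 159 against 217 and 193 CPM (-0.75, SE 0.38, edgeR adjusted p = 0.411).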

How the data were processed

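Liver RNA of 8 libraries was sequenced, 2 in each of 4 groups. Frozen livers were extracted with Trizol, per the labels' protocols, which name both an Illumina TruSeq and a KAPA mRNA HyperPrep kit without saying which library had which. The authors deposited whole-number read counts per gene symbol, for which the submitters' processing notes name STAR 2.6.0a, HTSeq 0.6.1 and the build mm10 (GRCm38). Strand setting and gene annotation of the counting were not stated in the sources used here, so antisense and overlapping reads may be counted with a gene. The number of columns not used was 0.

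Counts were tested with edgeR 4.0.16 in R 4.3.3 by the quasi-likelihood F test, after TMM scaling and filterByExpr, which kept 13999 genes. A single model of the 4 groups covered the 8 libraries, with 4 residual degrees of freedom and a biological coefficient of variation of 27.2%. P-values were adjusted by Benjamini-Hochberg over all genes tested, with a threshold of 0.05, and each SE is the log2 fold change over the root of F. The fit was also run on simulated counts with known changes, and the outcome is not given here. That simulation held no contaminated or mislabelled library, so it does not bear on the doubted libraries. A count of 3, used as a floor, equals 0.083 to 0.123 CPM. Reads carry no molecular identifiers, so the floor covers counting error only.

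Levels between genes were compared per kb of merged GENCODE M21 exons, with coordinates on GRCm38. Promoters came from RefSeq, matched by symbol, and no protein sequences were used here. The members and the gene lists were chosen with earlier results of these data known. The rule named all 10 members, Yap1 and Ctgf, the 3 genes nearest to Igf1, and from each pathway list the 3 genes with the smallest p in each knockout comparison, of which some are described. Marker lists were used as sums per library and as counts of genes per direction, and Msln was named after its values were seen.

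Alternative settings were RLE size factors, DESeq2 1.42.0 on the same genes, no low-count filter, the libraries of the comparison alone, the replicate number as a block, each library left out in turn, and 2 doubted libraries left out together. The main fit had no replicate block.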

Additional observations from a re-analysis of the deposited data

How the results depend on the processing

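The number of genes past the threshold depended on the settings in each comparison. In the Yap1 comparison it was 4, and 514 with DESeq2, 37 without a low-count filter, 0 with its own libraries alone (1238 at an unadjusted p under 0.05), 19 with the replicate block, 0 to 3728 with single libraries left out (3728 without Yap control replicate 1) and 938 without both doubted libraries. In the Ctgf comparison it was 0 throughout (277 at an unadjusted p under 0.05) except for 4 with DESeq2. For the difference of effects it was 0, and 142 with DESeq2, 2 without a low-count filter, 0 to 2092 with single libraries left out and 143 without both. Between the controls it was 333, and 1527 with DESeq2, 0 with their own libraries alone (2509 at an unadjusted p under 0.05), 219 with the replicate block, 0 to 3699 with single libraries left out and 4056 without both. A block that crossed the replicate numbers between the lines, added after the controls' deviations were seen to correlate at -0.117 across genes, gave 240. The block put no member past the threshold. Deviations of libraries with the same replicate number correlated across genes at 0.072 in the Yap line and 0.068 in the Ctgf line. The title of Yap control replicate 2 carries the number in the column name of Yap1 knockout replicate 2, while that of Yap control replicate 1 carries its own column's number, so whether the labels pair controls with knockouts is unclear. Leaving out a library leaves 1 sample in a group, which is then assumed to vary like the others. Causes of these shifts were not tested.

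Of 560 values of members under alternative settings, 495 kept direction and side of the threshold, 39 changed sign and 29 passed newly, 3 of which (Igfbp2 without both doubted libraries) did both. With single libraries left out, values that changed sign ran in the Yap1 comparison from -0.048 to 1.37 for Igfbp1, -1.46 to 0.86 for Igfbp2, -1.09 to 0.067 for Igfbp4, -0.37 to 0.33 for Igfbp5, -0.46 to 0.56 for Igfbp6 and -0.20 to 0.14 for Igfbp7. In the Ctgf comparison they ran from -0.096 to 0.26 for Igf1, -0.37 to 0.37 for Igfbp2, -0.45 to 0.46 for Igfbp3 and -0.26 to 0.021 for Igfbp7. For the difference they ran from -0.89 to 0.54 for Igfbp1, -1.50 to 0.82 for Igfbp2 and -0.081 to 0.26 for Igfbp7, and between controls from -0.0044 to 1.31 for Igf1r, -0.60 to 0.27 for Igfals and -0.50 to 1.81 for Igfbp2. Without both doubted libraries the sign turned for Igfbp2 (0.85), Igfbp4 (0.066) and Igfbp6 (0.56) in the Yap1 comparison, Igf1 (-0.095) and Igfbp2 (-0.37) in the Ctgf comparison, Igfbp1 (1.36) and Igfbp2 (1.22) in the difference and Igfbp2 (-0.50) between controls. With the replicate block it turned for Igfbp5 (-0.022) and Igfbp6 (0.058) in the Yap1 and Igfbp2 (-0.0021) and Igfbp3 (-0.0014) in the Ctgf comparison, and with the Yap libraries alone for Igfbp5 (-0.014). Depth limited Igfbp6, at 12 to 63 counts per library.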
